A study of Rattus norvegicus with 12 samples.

Results

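The enzymes and scaffolds of the cAMP cascade were followed in rat epididymal adipose tissue, in arrays labelled food removed and arrays labelled ad lib. Members were defined by gene symbol, as adenylyl cyclases (Adcy), phosphodiesterases (Pde), catalytic and regulatory subunits of protein kinase A (Prkac, Prkar), A-kinase anchoring proteins (Akap), inhibitory G protein alpha subunits (Gnai) and Gnas. The set was chosen with earlier results of these data known. Of 22523 probes on the array, 61 probes in 56 genes carried such a symbol. Of these, 43 probes in 41 genes were detected (detection p under 0.05) on at least 6 of the 12 arrays and were tested, among 12196 tested probes in all.

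cAMP is made by adenylyl cyclases, which receptors stimulate through the Gnas product and restrain through the Gnai products. Phosphodiesterases degrade it. Protein kinase A is held inactive by its regulatory subunits until cAMP binds them, and A-kinase anchoring proteins place the kinase near its substrates. In adipocytes this cascade drives lipolysis when catecholamines act, and insulin opposes it, in part through the phosphodiesterase Pde3b.

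Tissue came from 12 male Sprague-Dawley rats aged 40 days, with 6 rats in each group. Rats labelled food removed had been without food for 6 h according to the labels, while the study's text gives a longer time, and rats labelled ad lib had free access to food. All 12 RNA samples were hybridised to 1 RatRef-12 BeadChip, on which position nearly coincided with group: the ad lib samples lay at positions 2 and 8 to 12 and the others at positions 1 and 3 to 7. Position and group can therefore be separated only in part.

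Values below are log2 signals after background correction and quantile normalization, and each difference is the mean of the arrays labelled food removed minus that of the arrays labelled ad lib. This direction is opposite to the study's own for its leading genes: Pdk4, which inactivates pyruvate dehydrogenase, had a log2 difference of −2.95 (SE 0.27, limma adjusted p = 0.000236), and Angptl4, an inhibitor of lipoprotein lipase, one of −2.08 (SE 0.27, limma adjusted p = 0.00111). Groups are called by their labels throughout, and every sign below would turn if the labels were exchanged.

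Between 51.2% and 59.6% of probes were detected on each array, and the median raw intensity ran from 91.1 to 139.6. Each member's signal rested on 23 to 85 beads per array. The bead standard error of a tested member was typically 4.29% of its signal (range of medians 2.54% to 5.59%) on the raw scale. The SD between arrays of a group had a median of 0.32 on the log2 scale over the tested members. Adipocyte markers were detected on every array, 9 of the 9 with a probe. Lcn5, an epididymal lipocalin, was above 8 on 4 arrays: it measured 14.49, 8.96 and 11.17 on food removed replicates 3, 4 and 5 and 11.15 on ad lib replicate 6. The other epididymis markers did not all follow it, as given below. The members with an unadjusted p under 0.05 are given with and without these 4 arrays.

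No member passed the test. With limma, 0 of 43 member probes had an adjusted p under 0.05 in either direction, where 1.05% of all tested probes were called higher and 1.42% lower in the arrays labelled food removed. At an unadjusted p under 0.05 there were 7 members, or 16.3%, with 1 higher and 6 lower; over all tested probes the shares were 6.51% higher and 9.40% lower, 15.9% together. The methods' t-test, adjusted, also called 0, with 6 members at an unadjusted p under 0.05, a count not taken over all probes for that test. No member had groups that failed to overlap, against 2.50% of all tested probes. The share of members past the unadjusted threshold was thus near that of the whole array.

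The members' differences were small. They ran from −0.78 to 0.55, with a median of −0.16 and 29 of 43 below 0, whereas the median over all tested probes was −0.02 and 53.4% lay below 0. For 40 of the 43 probes (93%, against 91.8% of all tested probes) the 95% interval lay within 1 log2 unit on either side of 0, which is a change of 2-fold. For 14 it lay within 0.5. A 2-fold change in signal was therefore outside the interval for most members, while smaller changes lay inside many of the intervals. The scale of the differences depended on processing: the members' median was −0.10 with an offset of 50 and −0.07 without background correction. For dim probes the intervals therefore do not bound the change in the transcript itself.

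**Figure D1:**
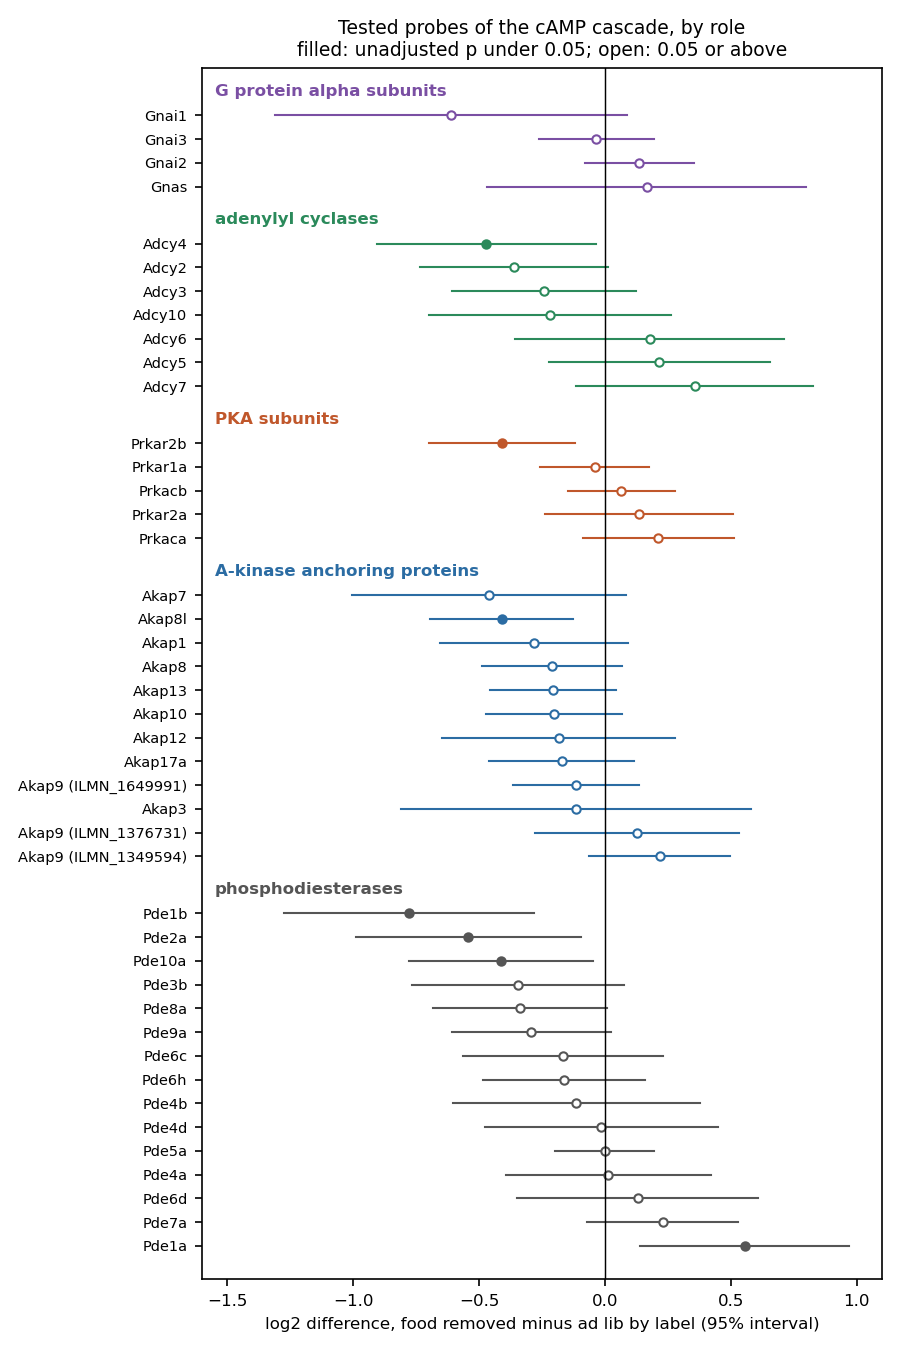
Log2 difference (food removed minus ad lib by label) of the 43 tested probes on the horizontal axis, with its 95% interval as a line, grouped by role. Filled points are the 7 probes with an unadjusted p under 0.05; most intervals cross 0, and none of the 43 passed after adjustment.

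Among the G protein alpha subunits, none of 4 tested probes had an unadjusted p under 0.05. Gnai2, an inhibitory subunit, measured 13.26 at the lowest, 13.47 at the median and 13.60 at the highest in arrays labelled food removed, and 13.16, 13.33 and 13.51 in those labelled ad lib. These ranges overlapped in part: food removed replicates 5 and 6 lay above the ad lib range, and ad lib replicates 1 and 2 lay below the other. The difference was 0.14 (95% interval −0.08 to 0.35). Gnai3 differed by −0.03 (95% interval −0.26 to 0.19). Gnai1 varied far more: it ran from 8.59 through a median of 9.51 to 10.10 in arrays labelled food removed and from 9.05 through 10.19 to 11.12 in those labelled ad lib. Its difference was the most negative of this group, at −0.61 (SE 0.33, limma adjusted p = 0.383), and it ranged from −0.82 to −0.40 when each array was left out in turn. Gnas, the gene of the stimulatory subunit, has 2 probes on the array, both assigned to the same transcript. Several start sites are listed for Gnas, and which of its products these probes detect was not tested. The tested probe, ILMN_1375640, differed by 0.17 (95% interval −0.47 to 0.80), with ad lib replicate 4 highest at 7.12, and the other, ILMN_1359634, was detected on 2 arrays and was not tested. Even the tested probe was dim, with a raw signal of 103.6 to 180.6 over the arrays, against 5088 to 15549 for Gnai2.

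Of 7 tested adenylyl cyclases, 4 lay below 0 and 3 above. Adcy4, one of the isoforms that G protein beta-gamma subunits stimulate, measured 8.51, 9.39 and 9.76 (lowest, median, highest) in arrays labelled food removed and 9.35, 9.83 and 10.11 in those labelled ad lib. The groups overlapped, with food removed replicate 3 lowest of all 12. The difference was −0.47 (SE 0.20, unadjusted limma p = 0.0357, adjusted p = 0.272; exact two-sided permutation p = 0.0584), and it was −0.32 without that array (adjusted p = 0.406) and −0.22 without the 4 arrays with Lcn5 signal (adjusted p = 0.659). Adcy2, of the same subclass, differed by −0.36 (SE 0.17, limma adjusted p = 0.328), and by −0.23 without the 4 arrays. Adcy7, the third isoform of that subclass, lay on the other side of 0, at 0.36 (95% interval −0.12 to 0.83), and at 0.64 (adjusted p = 0.209) without the 4 arrays. The Adcy7 probe was dim, with a raw signal of 93.0 to 139.0, and was detected on 5 arrays labelled food removed and 3 labelled ad lib. Adcy5 and Adcy6, the calcium-inhibited isoforms, differed by 0.22 and 0.18. Adcy6 without ad lib replicate 3, which measured 6.10 against 7.32 to 7.82 on the rest of its group, had a difference of −0.07. Adcy3, which olfactory neurons and adipose tissue both use, differed by −0.24 (95% interval −0.61 to 0.12), and Adcy10, the soluble bicarbonate-sensitive cyclase, by −0.22.

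Of the 5 protein kinase A subunits, 1, Prkar2b, had an unadjusted p under 0.05. Prkar2b, the type II beta regulatory subunit that predominates in mouse adipose tissue, measured 12.50, 13.01 and 13.17 in arrays labelled food removed and 13.11, 13.32 and 13.70 in those labelled ad lib. Only the ends of the ranges met. The difference was −0.41 (SE 0.14, unadjusted limma p = 0.00924, adjusted p = 0.142; exact two-sided permutation p = 0.00433, where the smallest such p that 6 against 6 can give is 0.00216). It stayed below 0 when any single array was left out, between −0.46 and −0.33, and was −0.30 (adjusted p = 0.367) without the 4 arrays with Lcn5 signal. The other regulatory subunits were close to 0: Prkar1a differed by −0.04 (95% interval −0.26 to 0.18) and Prkar2a by 0.13 (95% interval −0.24 to 0.51). The catalytic subunits were Prkaca at 0.21 (95% interval −0.09 to 0.51) and Prkacb at 0.06 (95% interval −0.15 to 0.28). Prkaca ran from 12.06 to 12.41 in arrays labelled food removed, inside the ad lib range of 11.53 to 12.44. Whether Prkar2b differed from the other subunits in its response was not tested.

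Of 15 tested phosphodiesterases, the role with the most probes, 4 had an unadjusted p under 0.05 (26.7%, against 15.9% of all tested probes). Both calcium/calmodulin-dependent enzymes of the first family that were tested were among them, on opposite sides of 0. Pde1b measured 6.75, 7.11 and 7.93 in arrays labelled food removed and 7.44, 8.03 and 8.68 in those labelled ad lib. Food removed replicates 2 and 4 reached into the ad lib range. The difference was −0.78 (SE 0.23, unadjusted limma p = 0.00466, adjusted p = 0.101; exact two-sided permutation p = 0.0152). Its limma p was the smallest of the members, while the permutation p of Prkar2b and Akap8l were smaller. Leaving out each array in turn gave −0.92 to −0.65. Of these fits, only that without food removed replicate 4 passed, at −0.92 (adjusted p = 0.0375). That array was the highest of its group, so leaving it out had to widen the difference. Calls over all probes also went from 301 to 483 without it. Without the 4 arrays with Lcn5 signal the Pde1b difference was −0.82 (adjusted p = 0.130). Pde1a measured 5.73, 5.88 and 6.34 against 5.05, 5.24 and 6.19. Its probe was dim, with a raw signal of 89.1 to 202.8. It was detected on 6 arrays labelled food removed and 4 labelled ad lib. Of the ad lib arrays, replicate 1 alone exceeded 5.73. The difference was 0.55 (SE 0.19, unadjusted limma p = 0.0123, adjusted p = 0.159; exact two-sided permutation p = 0.0238). Leaving out each array in turn gave 0.48 to 0.71. Of these fits, only that without ad lib replicate 1 passed, at 0.71 (adjusted p = 0.0384), and leaving out its group's highest array had to widen the difference. The Pde1a difference was 0.36 (adjusted p = 0.513) without the 4 arrays with Lcn5 signal. Over the alternatives it ran from 0.20 without background correction to 0.84 in the authors' normalized values, where it did not pass. The third gene of the family, Pde1c, was detected on no array.

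Pde2a, which cGMP stimulates, measured 8.67, 9.57 and 10.21 in arrays labelled food removed and a narrow 9.86, 10.03 and 10.23 in those labelled ad lib. Of the arrays labelled food removed, replicate 4 alone lay inside the ad lib range. The difference was −0.54 (SE 0.21, unadjusted limma p = 0.0207, adjusted p = 0.208; exact two-sided permutation p = 0.0281). It was −0.38 (adjusted p = 0.295) without food removed replicate 3 and −0.53 (adjusted p = 0.150) without the 4 arrays with Lcn5 signal. Pde10a, which degrades both cAMP and cGMP, measured 6.15, 6.99 and 7.21 against 7.04, 7.22 and 7.48. Its difference was −0.41 (SE 0.17, unadjusted limma p = 0.0291, adjusted p = 0.246; exact two-sided permutation p = 0.0325), and it was −0.27 without food removed replicate 3 and −0.21 without the 4 arrays with Lcn5 signal (adjusted p = 0.350 and 0.560).

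Pde3b, the enzyme through which insulin lowers cAMP in fat cells, measured 5.28, 5.74 and 6.11 in arrays labelled food removed and 5.49, 6.10 and 6.62 in those labelled ad lib. Food removed replicates 1, 3 and 5 and ad lib replicate 6 were the low arrays. The difference was −0.35 (95% interval −0.77 to 0.07, limma adjusted p = 0.419). Pde3a was detected on 2 arrays and was not tested. The cAMP-specific enzymes of the fourth family were near 0, with Pde4a at 0.01, Pde4b at −0.11 and Pde4d at −0.01, and their 95% intervals lay between −0.60 and 0.45, and Pde4c was detected on 4 arrays. Of the other cAMP-specific families, Pde7a differed by 0.23 and Pde8a by −0.34 (SE 0.16, limma adjusted p = 0.323). Among the cGMP-specific enzymes Pde5a had one of the narrowest intervals of all members, −0.20 to 0.20, and Pde9a differed by −0.29 (SE 0.15, limma adjusted p = 0.352). The Pde5a probe was dim, with a raw signal of 102.3 to 163.5. Its narrow interval is one of signal and does not bound a change in the transcript. The photoreceptor-type probes Pde6c, Pde6d and Pde6h differed by −0.17, 0.13 and −0.16. Pde6d and Pde6h are not catalytic: the former encodes a carrier of prenylated proteins and the latter an inhibitory subunit.

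A-kinase anchoring proteins lay mostly below 0, with 10 of 12 tested probes there and a median of −0.19. Akap8l, a nuclear relative of Akap8, measured 5.48, 5.89 and 6.20 in arrays labelled food removed and 6.06, 6.30 and 6.58 in those labelled ad lib. Its probe was dim, with a raw signal of 116.0 to 190.5. Food removed replicates 4 and 6 overlapped the ad lib arrays. The difference was −0.41 (SE 0.13, unadjusted limma p = 0.00805, adjusted p = 0.131; exact two-sided permutation p = 0.0108). It was −0.33 (adjusted p = 0.199) without food removed replicate 3 and −0.40 (adjusted p = 0.171) without the 4 arrays with Lcn5 signal. Akap7, an anchor at membrane channels, was dim and detected on 7 arrays. It differed by −0.46 (SE 0.25, limma adjusted p = 0.400), and by −0.86 (adjusted p = 0.0405) without the 4 arrays with Lcn5 signal, which is past the threshold. Akap13 differed by −0.21 (SE 0.12, limma adjusted p = 0.421) at ILMN_2039408, while its other probe, ILMN_1355689, was detected on no array. Akap1, the mitochondrial anchor, differed by −0.28, Akap10 by −0.20, Akap12 by −0.18, Akap8 by −0.21 and Akap17a by −0.17, none with an adjusted p under 0.05.

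The 3 tested probes of Akap9, a Golgi and centrosome anchor, did not share a sign. ILMN_1349594 differed by 0.22 (95% interval −0.06 to 0.50), ILMN_1376731 by 0.13 and ILMN_1649991 by −0.12 (95% interval −0.36 to 0.13). No interval excluded 0, so these data give no direction for the gene.

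**Figure D2:**
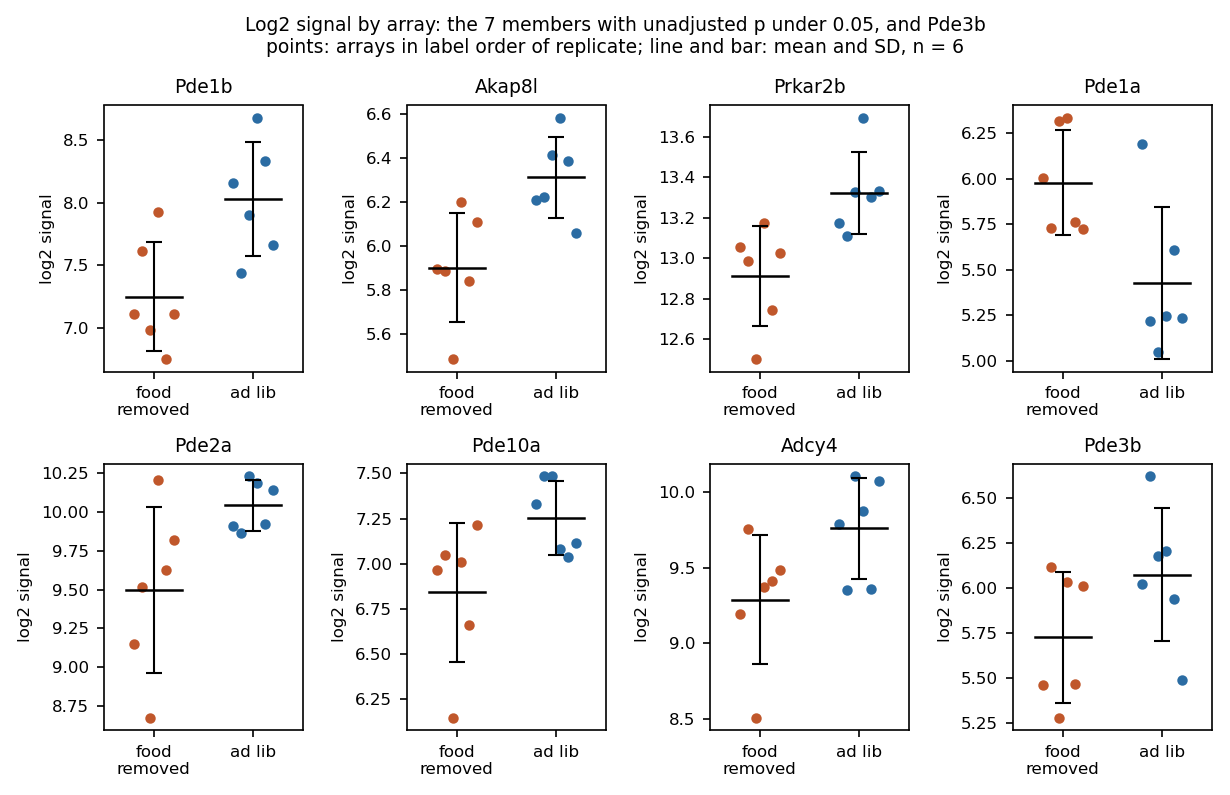
Log2 signal on each array for the 7 members with an unadjusted p under 0.05 and for Pde3b; points are arrays, the line is the group mean and the bar its SD (n = 6 a group). The groups overlap in every panel, and food removed replicate 3 is the lowest point of its group for Akap8l, Prkar2b, Pde2a, Pde10a, Adcy4 and Pde3b.

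Food removed replicate 3 was at the edge for many members. It held the lowest value of its group for 22 of 43 tested members (51.2%), against 40.8% of all tested probes, and ad lib replicate 2 held the lowest value of its group for 14 members (32.6%, against 18.5%). Food removed replicate 4 and ad lib replicate 4 each held the highest value of their group for 17 members (39.5%, against 23.5% and 24.3% of all tested probes). Without food removed replicate 3 the members' median difference was −0.12, with 29 of 43 below 0 and 6 at an unadjusted p under 0.05. Without ad lib replicate 6, 13 members had an unadjusted p under 0.05, 12 of them lower, and 0 were called. With chip position as a covariate, 2 had an unadjusted p under 0.05, both lower, and 0 were called. The share of all tested probes at this unadjusted threshold was not computed for these settings. The counts can therefore not be told from a shift over the whole array. Calls over all probes numbered 297 without food removed replicate 3, 297 without ad lib replicate 6 and 32 with chip position.

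**Figure D3:**
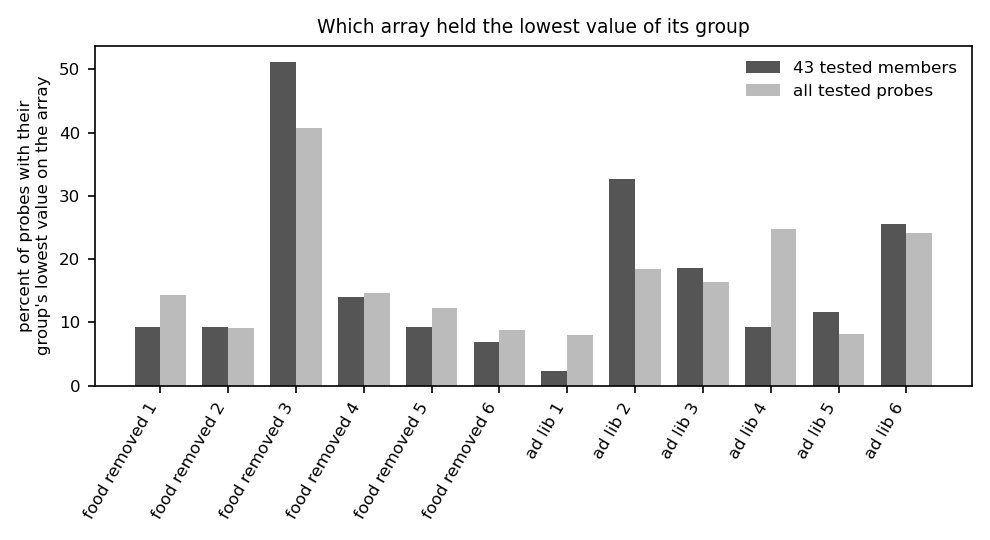
Percent of probes whose lowest value within the group fell on each array, for the 43 tested members (dark bars) and for all tested probes (light bars). Food removed replicate 3 held the lowest value for 51.2% of members and 40.8% of all tested probes.

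Cell type markers moved beside some of these values. In whole tissue, fewer cells of a type and less RNA per cell cannot be told apart. Endothelial markers, 8 of the 10 listed with a probe and all of these tested, had a median difference of −0.35, with 1 called lower and 0 higher. The log2 of their mean signal was 9.87 to 10.86 in arrays labelled food removed and 10.64 to 11.06 in those labelled ad lib, lowest on food removed replicate 3, and at least 7 of the 8 were detected on every array. Macrophage markers (7 of 10 with a probe, 0 called) spanned 10.53 to 11.27 and 10.94 to 11.41. Adipocyte markers spanned 13.52 to 13.80 and 13.65 to 13.87, and their median difference was 0.02. Of the 9, 1 was called higher, the hormone gene Lep, at 1.55 (limma adjusted p = 0.0255). Smooth muscle markers (6 of 8 with a probe, 5 tested) spanned 8.77 to 9.43 and 8.66 to 9.40. Of these, 1 was called lower, Synpo2, an actin-associated protein, at −1.08 (limma adjusted p = 0.00328) without overlap, while Des and Mylk differed by 0.38 and 0.63 and were not called. Blood cell markers (6 of 9 with a probe, 5 tested, 0 called) spanned 12.09 to 12.34 and 12.06 to 12.45. Such a mean is set mainly by the brightest probes of a list. In blood cells this was Hbb, at 14.63 to 15.01, and no other probe of that list exceeded 7.68. The span therefore gives no level for the other blood cell markers. Among adipocyte markers, bright probes such as Cfd and Lpl weighed most. The part of these cell types in the values of Pde2a, Adcy4, Pde1b and Prkar2b was not tested.

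A few members were high on arrays with signal for epididymis markers. On food removed replicate 3 all 11 epididymis markers with a probe (of 15 listed) were detected and the log2 of their mean signal was 13.59. It was 7.41, 8.98 and 8.63 on food removed replicates 4 and 5 and ad lib replicate 6, and 5.84 to 6.44 elsewhere. On food removed replicate 4, 8 of the 11 were detected. On food removed replicate 5 and ad lib replicate 6 the high markers were Lcn5, Defb1 (8.95 and 8.33) and Spink8 (11.30 and 10.58), whereas 4 of the 11 were detected on each and the list's medians, 4.84 and 4.85, lay within the 4.62 to 5.09 of the arrays with low Lcn5, on which 2 to 6 were detected. Sperm and testis markers measured 7.92, 5.91 and 6.17 on food removed replicates 3 and 5 and ad lib replicate 6, and 5.06 to 5.41 elsewhere. Adcy8, a calcium-stimulated cyclase, was detected on 4 arrays and was not tested. It measured 9.08, 7.66 and 7.46 on those same 3 arrays and 4.62 to 5.44 on all others. Akap3, a sperm tail anchor that just met the detection rule with 6 arrays, was 6.88 on food removed replicate 3 and 4.53 to 5.17 on the rest of its group, and its difference went from −0.12 to −0.45 (adjusted p = 0.196) without that array. Pde6d was 10.44 there and 8.82 to 9.36 on the rest of its group, and its difference went from 0.13 to −0.10. What these arrays share beyond the marker signal was not tested.

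**Figure D4:**
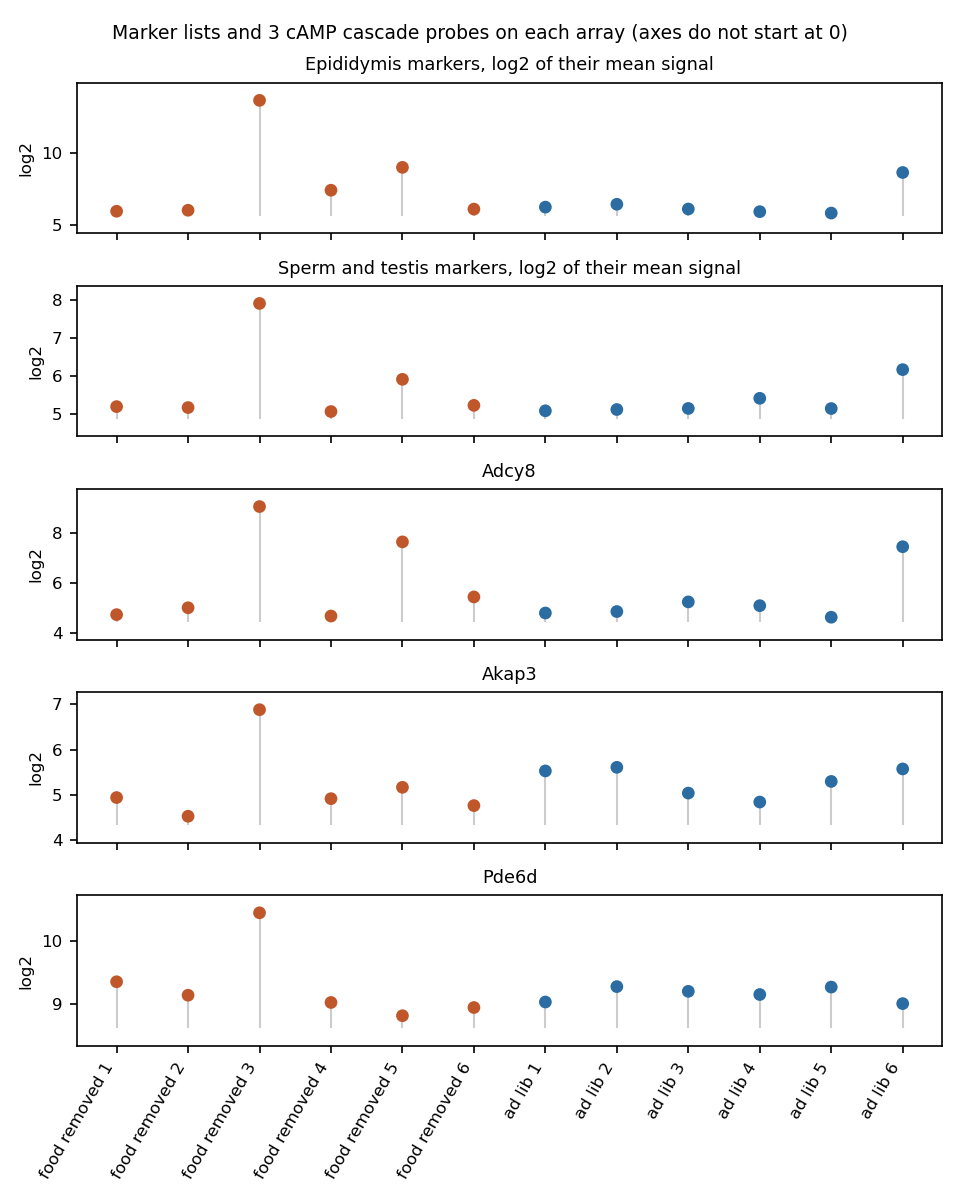
Log2 of the mean signal of the epididymis and the sperm and testis marker lists, and log2 signal of Adcy8, Akap3 and Pde6d, on each of the 12 arrays (food removed in orange, ad lib in blue). Food removed replicate 3 is highest in all 5 panels, and Adcy8 is also high on food removed replicate 5 and ad lib replicate 6, at 7.66 and 7.46.

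The 18 probes that were not tested included 8 detected on no array: Adcy1, Akap6, Akap11, the other probe of Akap13, Pde1c, Pde6a, Pde6b and Pde8b. The rest were detected on 1 to 4 arrays and comprised Adcy8, Akap4, Akap5, the other probe of Akap10, Akap14, the other probe of Gnas, Pde3a, Pde4c, Pde7b and Pde11a. Just outside the detection rule, Pde4c spanned 4.68 to 5.43 over the arrays, and just inside it Akap3 spanned 4.53 to 6.88. For probes this dim a transcript's absence cannot be told from a weak probe.

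Genes elsewhere in the pathway were read from a list of 83, of which 69 had a probe and 58 were tested, each by its brightest tested probe. Of the 58, 1 was called higher and 4 lower, where 1.01% of all 8583 tested genes were higher and 1.56% lower. The list's median was −0.02, against −0.01 over all genes. The 4 lower genes were Nr4a3, Per1, Pck1 and Sik1. The first 3 belonged to the 12 tested genes that CREB, the transcription factor activated by protein kinase A, is known to induce. Of these 12, 0 were called higher, and the median was −0.17. The list was chosen with earlier results of these data known, so these counts are not independent evidence.

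Nr4a3, a nuclear receptor induced by cAMP, measured 5.67, 5.77 and 6.31 in arrays labelled food removed and 6.93, 7.25 and 7.36 in those labelled ad lib, without overlap. It was lower by a log2 difference of −1.26 (SE 0.14, limma adjusted p = 0.000634). Per1, a clock gene, measured 8.49, 8.58 and 9.43 against 10.03, 10.55 and 11.25, also without overlap, a difference of −1.85 (SE 0.22, limma adjusted p = 0.000851). Sik1, a kinase that keeps CREB coactivators out of the nucleus, measured 8.53, 8.97 and 9.58 against 9.75, 10.09 and 10.48, a difference of −1.10 (SE 0.18, limma adjusted p = 0.0053). Pck1, a key enzyme of glyceroneogenesis in fat, ran widely in arrays labelled food removed, from 11.50 through 12.69 to 14.34, and narrowly in those labelled ad lib, from 14.46 through 14.63 to 14.70. Its difference was −1.85 (SE 0.34, limma adjusted p = 0.0102). Per1 and Pck1 were also singled out by the study from these same arrays, but as genes that rose on food removal. That direction is opposite to the one by label here, and the 2 reports are not independent evidence. With chip position as a covariate Nr4a3 and Per1 passed, but Sik1 (−1.20, adjusted p = 0.0597) and Pck1 (−1.72, adjusted p = 0.198) did not, and Sik1 also missed the threshold when arrays were only shifted to 1 median, without quantile normalization (adjusted p = 0.0614).

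The higher gene was Gna11, an alpha subunit of the Gq class, which measured 8.15, 8.65 and 8.77 in arrays labelled food removed and 7.95, 8.07 and 8.18 in those labelled ad lib. Food removed replicate 4 was inside the ad lib range. The difference was 0.50 (SE 0.11, limma adjusted p = 0.0325), and the call was lost on leaving out any single array other than replicate 4 of either group (adjusted p = 0.0550 to 0.0861).

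**Figure D5:**
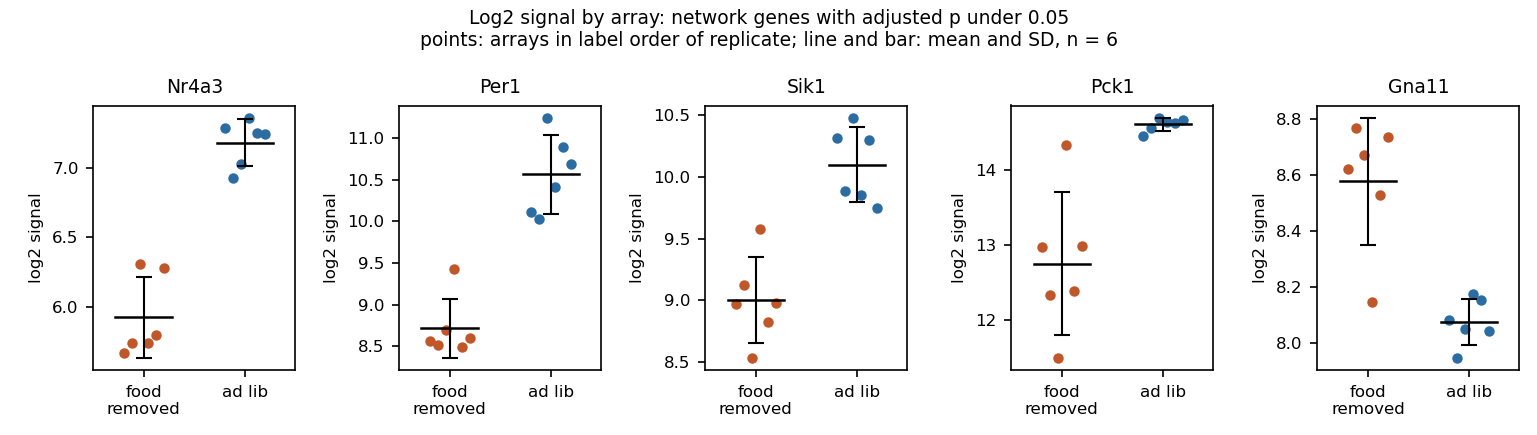
Log2 signal on each array for the 5 pathway genes outside the enzyme and scaffold families with an adjusted p under 0.05; points are arrays, the line is the group mean and the bar its SD (n = 6 a group). Groups do not overlap for Nr4a3, Per1, Sik1 and Pck1, and overlap by 1 array for Gna11.

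Other steps of the pathway had no call. Of 6 tested adipocyte substrates of protein kinase A and lipolysis genes, 0 were called, with a median of −0.44. Lipe, hormone-sensitive lipase, differed by −0.53 (SE 0.16, limma adjusted p = 0.108), and by −0.63 (adjusted p = 0.0362) without food removed replicate 4. That array was the highest of its group for Lipe, and calls over all probes went from 301 to 483 without it. Pnpla2, adipose triglyceride lipase, differed by −0.40 (SE 0.13, limma adjusted p = 0.134), although its groups did not overlap (13.43 to 14.22 and 14.26 to 14.50). Rapgef3, the cAMP sensor Epac1, differed by −0.70 (SE 0.20, limma adjusted p = 0.0866), and Pkia, a peptide inhibitor of the catalytic subunit, by −0.36. The CREB coactivator Crtc2 differed by −0.30 and Creb1 by 0.18. Gnb5, a G protein beta subunit, differed by 0.50, Rgs3, which speeds the inactivation of G protein alpha subunits, by −0.79 (limma adjusted p = 0.105), and the receptor kinase Grk4 by −0.27.

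CREB binds the cAMP response element, so the bases upstream of the start sites were searched for it. The full palindrome TGACGTCA was present on either strand in 612 of 33469 RefSeq promoters of build GRCr8 (1.83%; windows of 300 bases, 250 of them upstream), and the shorter core TGACG or its complement CGTCA, which the full site contains, in 7097 (21.2%). Of the 41 member genes with a tested probe, 30 matched a promoter by gene ID. Their 42 promoters held the full site in 1, that of Akap17a, and a core in 13 (31%). The 9 matched genes of the CREB-induced list had 14 promoters, with the full site in 2 (14.3%) and a core in 8 (57.1%). These shares count windows and not genes: Bdnf had several windows, some of them overlapping. A match describes these letters and is no evidence of binding.

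Shown here are the 250 bases upstream of 2 members with a pair of cores each, Prkaca and Pde10a, and of the 2 called genes with a core, Sik1 and Pck1, 5′ to 3′ on the gene's strand, with cores in capitals (RefSeq, GRCr8).
Prkaca, chr19:41083190-41083439, minus strand: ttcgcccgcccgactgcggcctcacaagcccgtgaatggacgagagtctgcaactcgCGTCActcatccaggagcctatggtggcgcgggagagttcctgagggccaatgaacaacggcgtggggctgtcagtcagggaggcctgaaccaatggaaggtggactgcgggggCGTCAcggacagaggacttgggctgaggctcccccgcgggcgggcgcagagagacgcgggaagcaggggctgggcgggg
Pde10a, chr1:54765669-54765918, minus strand: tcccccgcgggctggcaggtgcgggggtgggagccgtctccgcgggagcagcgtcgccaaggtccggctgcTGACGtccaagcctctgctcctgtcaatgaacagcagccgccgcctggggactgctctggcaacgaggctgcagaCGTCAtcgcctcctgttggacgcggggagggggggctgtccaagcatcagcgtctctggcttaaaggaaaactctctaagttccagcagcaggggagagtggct
Sik1, chr20:9958647-9958896, minus strand: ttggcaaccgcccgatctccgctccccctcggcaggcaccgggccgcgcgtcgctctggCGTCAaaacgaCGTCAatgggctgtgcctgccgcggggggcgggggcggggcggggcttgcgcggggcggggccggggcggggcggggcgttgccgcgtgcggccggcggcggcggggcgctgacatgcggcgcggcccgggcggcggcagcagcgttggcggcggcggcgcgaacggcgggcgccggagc
Pck1, chr3:182348322-182348571, plus strand: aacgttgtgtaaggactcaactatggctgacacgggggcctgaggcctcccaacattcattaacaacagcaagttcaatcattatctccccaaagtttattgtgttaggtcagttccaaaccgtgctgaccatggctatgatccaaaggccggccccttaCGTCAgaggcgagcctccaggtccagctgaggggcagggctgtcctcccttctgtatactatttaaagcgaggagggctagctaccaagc

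In Pck1 the core began 90 bases before the start site, and in Sik1 the pair began 191 and 180 bases before it. In Prkaca the sites began at 193 and 79 bases and in Pde10a at 179 and 104 bases. The other listed promoter of Pde10a held no core, and a promoter of Pde4d, not shown, also held a pair. Prkaca, with 2 cores, differed by 0.21 and was not called, whereas Per1, which was lower, had none in its listed window. No promoter of Nr4a3, Pde1b or Pde3b was matched.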

How the data were processed

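RNA of 12 tissue samples was measured on 12 arrays. The authors deposited raw signal intensity per probe with a detection p-value, and a second table of their own normalized intensity (linear scale; cubic spline in Illumina software per the methods), used here only as an alternative. From the raw intensity, neqc of limma 3.58.1 (R 4.3.3, offset 16) gave log2 values. Of 22523 probes, 12196 detected on at least 6 arrays were fitted in 1 linear model (lmFit, moderated by eBayes), and two-sided p-values were adjusted by Benjamini-Hochberg over all of them (call: adjusted p under 0.05). The fit was tested on simulated data. Exact permutation tests used all 924 assignments of arrays. Samples were grouped by their labels. Gene names came from the platform table (13793 probes with 1 symbol, 0 with several, 8730 with none). The members and lists were chosen with earlier results of these data known. Named genes were every called member, the 3 smallest p per role, Pde3b, Prkar2b, Prkaca, Gnas and Gnai2, and from the pathway list every called gene and the 2 smallest p per sublist; those named outside this rule were chosen after their values were seen. The number of arrays limits the precision. Alternatives covered background, normalization, the authors' values, offset, filter, variance model, array weights, t-test, replicate block, chip position, threshold and each array left out. Leaving out the 4 arrays with Lcn5 above 8 was added after the data were seen.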

Additional observations from a re-analysis of the deposited data

Results flagged for a closer look

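In 88 groups of 6 arrays (the 43 tested members and Adcy8, which was added after its values were seen), 8 held an array set apart from the other 5 by Dixon's gap ratio. Chance alone marks about 1 in 20 groups. On food removed replicate 3, Akap3 measured 6.88 (others 4.53 to 5.17), Pde6d measured 10.44 (others 8.82 to 9.36) and Pde9a measured 7.48 (others 7.85 to 8.06). On ad lib replicate 6, Adcy8 measured 7.46 (others 4.62 to 5.24). On ad lib replicate 4, Prkar2a measured 6.02 (others 4.98 to 5.36) and Pde4a measured 5.99 (others 6.64 to 7.01). Adcy6 measured 6.10 on ad lib replicate 3 (others 7.32 to 7.82), and Akap17a measured 8.49 on ad lib replicate 2 (others 9.05 to 9.37).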

How the results depend on the processing

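Members called stayed at 0 in both directions under every alternative except 4. Array weights called 1 lower (Pde1b, −0.78, adjusted p = 0.0329), while calls over all probes went from 301 to 840. Without the 4 arrays with Lcn5 signal 1 was lower (Akap7). Leaving out each array in turn gave 0 to 1 lower and 0 to 1 higher. Pathway genes called higher went from 1 to 2 with array weights and to 0 with the median shift, the replicate block, chip position as a covariate or an adjusted p under 0.01, and were 0 to 1 without each array. Those called lower went from 4 to 2 with chip position, and were 4 to 5 without each array. Other settings also moved single genes among them. Pck1 (adjusted p = 0.0102) missed the threshold of 0.01, and Sik1 was lost with the median shift (adjusted p = 0.0614). Lipe (adjusted p = 0.0488) and Rgs3 were gained with array weights. Over all probes, calls numbered 32 with chip position, 103 with the median shift, 178 with the replicate block and 157 to 483 without each array. Of the tested members, 32 kept their sign under all 22 alternatives that tested the same probes, and the other 11 had differences of −0.22 to 0.18. Signs turned with the median shift for Pde5a (0.033), with array weights for Pde6d (−0.042) and Prkar1a (0.014), with chip position for Pde4d (0.052) and Prkar1a (0.046), and without the 4 arrays for Adcy10 (0.034), Pde6d (−0.040) and Prkacb (−0.0040). Without each array, Adcy6 ran from −0.066 to 0.28, Akap3 from −0.45 to 0.019, Gnai3 from −0.079 to 0.019, Pde4a from −0.11 to 0.13, Pde4b from −0.24 to 0.059, Pde4d from −0.15 to 0.094, Pde5a from −0.033 to 0.041, Pde6d from −0.10 to 0.22 and Prkar1a from −0.079 to 0.00060. None of these was called, and the cause was not tested. Of 57 single values followed, 18 comparisons with an alternative lost a call and 10 gained one, among them Rgs3 (adjusted p = 0.0309 with array weights, 0.0406 with the replicate block and 0.0285 without the 4 arrays) and Gnb5 (0.00934 with array weights). Same-numbered arrays shared only a number (correlations of their deviations −0.41 to 0.13), and the replicate block called 0 members. Dim probes such as Akap7, Akap8l, Adcy7, Prkar2a, Pde1a, Pde3b, Pde5a and that of Gnas limit what can be seen of small changes.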
